A study of Mus musculus with 20 samples.

Results

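The 10 genes described here encode the enzymes that break down the branched-chain amino acids leucine, isoleucine and valine, and the enzymes that switch this pathway on and off. They were found by gene name in a table of 29339 Ensembl genes, and all 10 were present and passed the filter on low counts in every comparison. Bcat2, Bckdha, Bckdhb, Dbt, Bckdk, Ppm1k, Ivd, Mccc1, Mccc2 and Auh were selected on their levels in these same 20 libraries, by genotype and by series of library names. Their differences along these lines are therefore given as a description, with the share of all genes called beside each count, and nothing is read from the counts.

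RNA of hearts from C57BL/6 mice aged 8 weeks was sequenced in 20 libraries. By the labels, 5 libraries came from male WT mice (WT1, WT2, S7, S8 and S9) and 5 from male mice with the genotype TECRL-/- (S10, S11, S12, TKO5 and TKO6), here called KO. A further 3 came from female WT mice (S1 to S3) and 7 from female KO mice (S4 to S6 and TKO1 to TKO4). The names form 2 series, 12 S libraries and 8 WT/TKO libraries, and the sources do not say what separates them. The genotype label stands for loss of Tecrl, a relative of an enzyme that lengthens very long-chain fatty acids, and the study asked how its loss changes gene expression in hearts of both sexes. The study's methods describe pentobarbital anaesthesia before the hearts were taken. No treatment separated the groups, and the sources used here do not name the deleted part of the gene or the number of founder lines. The study's methods describe libraries made mouse by mouse, but for fewer mice than the libraries here, and the labels tie no library to an animal. The p-values therefore measure the spread between these libraries.

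Total counts ran from 12540002 to 20038593 per library, and the members had between 140 and 8851 counts in a library. The labels were not borne out by every transcript. Tecrl itself was not lower in the libraries labelled KO, with log2 fold changes of 0.02 ± 0.20 (standard error) in the males and 0.22 ± 0.14 in the females, and with the deleted part unknown, counts over the whole gene check the label only in part. In S7 to S9, labelled male, Xist was at 250 to 320 CPM and the Y-linked Ddx3y at 0, whereas S4 to S6, labelled female, had 84.5 to 102 CPM of Ddx3y and at most 0.255 CPM of Xist. Within the S series every WT library thus carried Xist and every KO library Ddx3y, so genotype label and sex-linked transcripts cannot be told apart there. The atrial gene Myl7 exceeded 500 CPM in S7, S9, S11 and S12. Whether the genotype labels of S4 to S9 hold, given that their sex-linked transcripts go against the sex labels, was not tested. If they do not, the KO against WT values that use these libraries do not compare the genotypes named. Below, groups are named as labelled.

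Branched-chain amino acids first lose their amino group to a mitochondrial transaminase, which leaves branched-chain keto acids. The branched-chain keto acid dehydrogenase complex then commits these to breakdown. A kinase inactivates the complex by phosphorylation of its E1 alpha subunit and a phosphatase removes the phosphate, and the heart is known as a tissue that expresses and uses this pathway. After this step the leucine arm runs through isovaleryl-CoA to acetoacetate and acetyl-CoA, while the valine and isoleucine arms end in propionate metabolism or acetyl-CoA.

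Expressed per length as FPKM over all 20 libraries, the highest level was that of Ivd, the first dehydrogenase of the leucine arm, with 56.1 ± 13.9 (SD, n = 20). Bckdhb, the E1 beta subunit of the dehydrogenase complex, followed with 30.7 ± 5.57 FPKM, and the transaminase Bcat2 with 25.1 ± 3.19. The kinase Bckdk stood at 20.3 ± 2.70 FPKM, Mccc2, the beta subunit of methylcrotonyl-CoA carboxylase, at 18.6 ± 4.12, and Bckdha, the E1 alpha subunit, at 18.1 ± 7.06. These 3 means differed by less than their SD. Dbt, the E2 core of the complex, had 15.1 ± 3.33 FPKM and the phosphatase Ppm1k 10.2 ± 3.30. Auh, the hydratase that follows the carboxylase, had 7.76 ± 1.35 FPKM and Mccc1, the carboxylase's alpha subunit, 5.49 ± 1.02, the lowest of the 10.

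FPKM divides by the union of all annotated exons, 1805 bases for Bckdhb to 10952 for Mccc1, so exons that hearts do not use lower the value. All 10 are protein-coding genes of the GRCm38 build. The transaminase gene Bcat2 lies at chr7:45570153-45589711 on the plus strand, Bckdk at chr7:127904082-127910221 on the plus strand, and Ppm1k at chr6:57506502-57535468 on the minus strand. Bckdha spans chr7:25629946-25658981 on the minus strand, and 1171 of its 1899 exonic bases (61.7%) also belong to B3gnt8 on the opposite strand. Bcat2 shares 15.9% of its exonic bases with the antisense transcript 0610005C13Rik, and Mccc1 shares 5.60% with antisense transcripts and a pseudogene, while the other members share none. The sources do not say whether counting used strand, so reads in the shared parts cannot be assigned with certainty.

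A start-site window, from 250 bases before to 50 after the start, was found for 9 of the 10 genes in RefSeq (GRCm38.p6), with 11 windows in all. They were searched on both strands for CCACCC, a sequence bound by KLF factors, CACGTG, the E-box, and AAGGTCA, the half-site of oestrogen-related receptors. CCACCC was found in 4 of the 11 windows (of Bcat2, Bckdhb, Ivd and Mccc1) and in 31.5% of all 32851 windows in the reference. CACGTG was found in 1, that of Mccc2, against 7.15% of all windows, and AAGGTCA in 0, against 4.72%. The 3 upstream sequences below are shown because these genes carry the kinase, the phosphatase and the narrowest spread, and each ends with the first transcribed base. They lie at chr6:57535487-57535737 (minus strand, Ppm1k), chr7:127903823-127904073 (plus strand, Bckdk) and chr7:45569903-45570153 (plus strand, Bcat2, wholly within an exon of 0610005C13Rik). Capitals mark the match to CCACCC, here on the reverse strand. A match in letters does not show that a factor binds.
Ppm1k: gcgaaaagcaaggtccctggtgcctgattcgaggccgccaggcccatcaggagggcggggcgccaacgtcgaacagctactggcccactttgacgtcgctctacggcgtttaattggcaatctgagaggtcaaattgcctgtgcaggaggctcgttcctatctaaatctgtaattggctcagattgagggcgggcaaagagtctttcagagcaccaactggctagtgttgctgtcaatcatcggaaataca
Bckdk: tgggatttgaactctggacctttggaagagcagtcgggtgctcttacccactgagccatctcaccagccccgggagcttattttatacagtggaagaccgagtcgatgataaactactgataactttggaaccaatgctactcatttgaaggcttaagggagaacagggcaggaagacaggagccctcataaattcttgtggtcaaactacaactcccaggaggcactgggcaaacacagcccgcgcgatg
Bcat2: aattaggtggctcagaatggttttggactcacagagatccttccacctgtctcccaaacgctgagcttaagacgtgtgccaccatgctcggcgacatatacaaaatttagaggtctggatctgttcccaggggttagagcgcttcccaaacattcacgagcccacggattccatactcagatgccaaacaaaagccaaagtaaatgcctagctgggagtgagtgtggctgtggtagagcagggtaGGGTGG
The Ppm1k and Bckdk sequences held none of the 3 motifs.

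The dehydrogenase complex showed its widest spread in the E1 alpha subunit. Bckdha stood at 55.6, 34.4, 27.8, 45.5 and 12.3 CPM in the male WT libraries WT1, WT2, S7, S8 and S9. In the male KO libraries it was at 43.4, 16.8, 21.2, 48.6 and 31.9 CPM (S10, S11, S12, TKO5, TKO6). The male groups overlapped over nearly their whole range, with S9, S11 and S12 the lowest. Among female WT libraries Bckdha was at 47.4 CPM in S1 but 10.9 in S2 and 10.1 in S3, and the 7 female KO libraries ran from 25.4 through a median of 42.1 to 53.1 CPM. The female WT group therefore split into 1 library inside the KO range and 2 below every other library. Across all 20 libraries Bckdha varied 5.53-fold, with an SD of 0.78 on the log2 CPM scale, wider than 97.4% of the 11958 genes with at least 10 counts in every library. B3gnt8, its neighbour on the other strand, had 1.76 to 9.31 CPM, with 9.31 in S9 but 1.79 in S2 and 3.02 in S3.

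The other subunits moved less. Bckdhb ranged from 35.4 CPM in S9 to 87.0 in WT1 (2.46-fold) and Dbt from 34.2 in S12 to 86.8 in WT1 (2.53-fold). Within a library, the ratio of Dbt to Bckdhb in FPKM stayed between 0.393 and 0.638. The ratio of Bckdha to Bckdhb, the partners of the E1 heterotetramer, ran instead from 0.236 in S3 and 0.245 in S2 to 0.7998 in S6. S9 followed at 0.331, and the remaining 17 libraries lay at 0.420 or above.

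**Figure D1:**
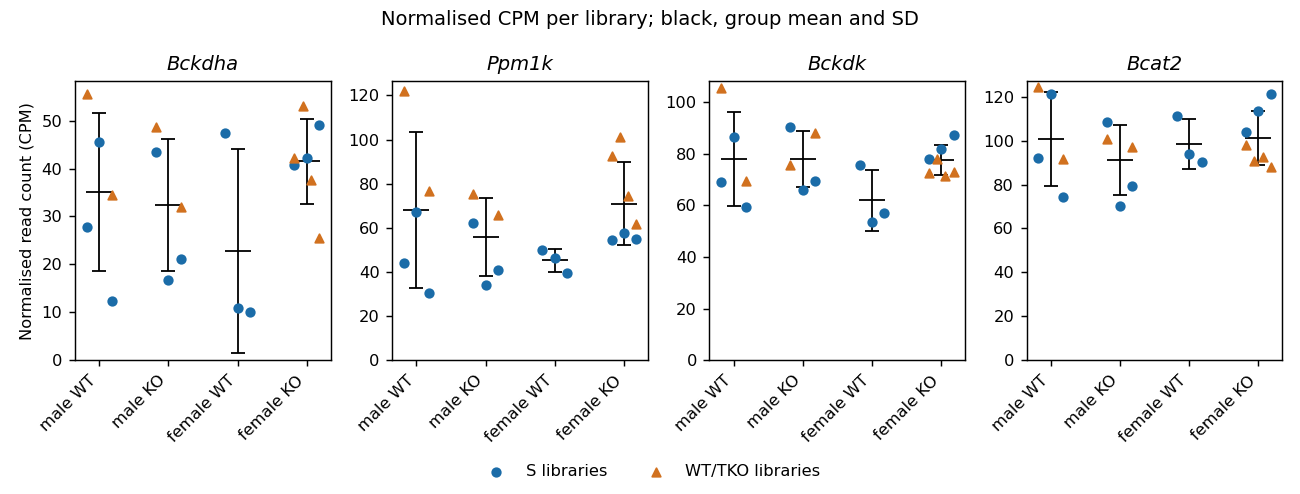
Normalised read count (CPM, linear axis from 0) of Bckdha, Ppm1k, Bckdk and Bcat2 in each library, by labelled group; circles are S libraries, triangles WT/TKO libraries, and black bars the group mean and SD. S2 and S3 lie at 10.9 and 10.1 CPM of Bckdha, below every other library, while Bcat2 stays between 70.0 and 124 CPM throughout.

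The kinase and the phosphatase, which act in opposite directions on E1 alpha, differed in spread. Bckdk stood at 105, 69.4, 69.1, 86.5 and 59.4 CPM in WT1, WT2, S7, S8 and S9, and at 90.5, 65.9, 69.5, 75.6 and 87.9 CPM in S10, S11, S12, TKO5 and TKO6. It was at 75.5, 53.6 and 56.9 CPM in S1 to S3, and at 71.3 to 87.4 CPM (median 77.96) in the female KO libraries. Its whole range was 1.97-fold, and the groups overlapped in both labelled sexes.

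Ppm1k covered 4.01-fold, wider than 86.7% of genes. It stood at 122, 76.7, 44.1, 66.97 and 30.4 CPM in WT1, WT2, S7, S8 and S9, and at 62.4, 34.1, 40.8, 75.5 and 65.9 CPM in S10, S11, S12, TKO5 and TKO6. The female WT libraries had 49.9, 46.4 and 39.3 CPM, and the female KO libraries 54.6 to 101 CPM with a median of 61.7. Among the female KO libraries, S4 to S6 lay at 54.6, 57.6 and 54.95 CPM, below the 92.4, 101, 74.4 and 61.7 CPM of TKO1 to TKO4.

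The ratio of Bckdk to Ppm1k in FPKM was higher in most S libraries than in most WT/TKO libraries. It was 1.88 to 3.19 in the 12 S libraries (median 2.41) and 1.257 to 2.17 in the 8 WT/TKO libraries (median 1.52). The 2 ranges overlapped through S2 (1.88), S8 (2.11), TKO4 (1.93) and TKO6 (2.17). By labelled group the ratio was 2.15 ± 0.748 in male WT, 2.42 ± 0.5803 in male KO, 2.23 ± 0.309 in female WT and 1.89 ± 0.540 in female KO libraries (SD, n = 5, 5, 3 and 7). The ranges of the female groups overlapped, as did those of the male groups. The ratio is one of transcripts, and no protein or phosphorylation was measured here.

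**Figure D2:**
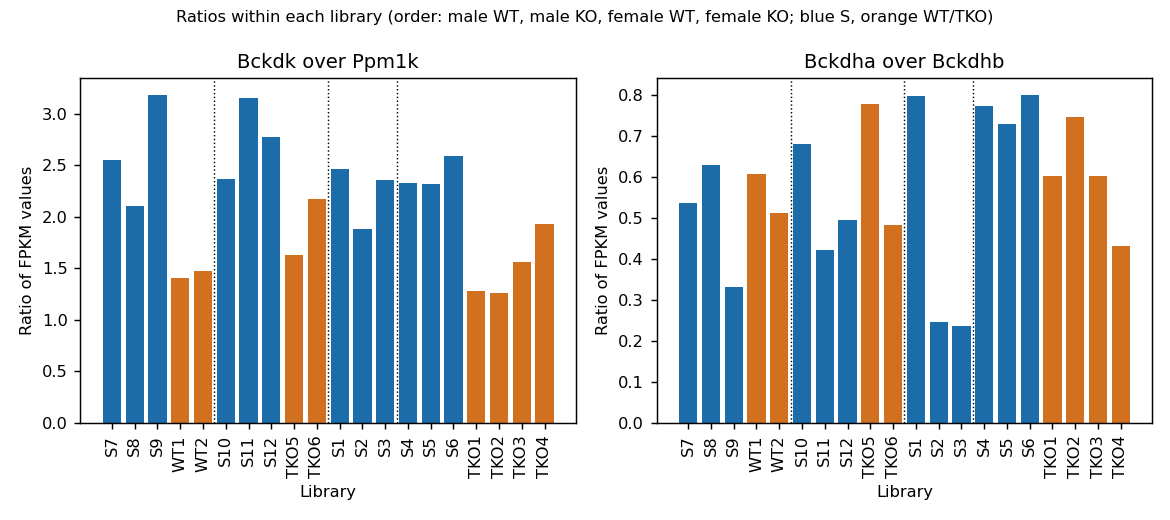
Ratios of FPKM values within each library for Bckdk over Ppm1k (left) and Bckdha over Bckdhb (right), as bars from 0; blue bars are S libraries, orange bars WT/TKO libraries, and dotted lines separate the labelled groups. The left panel holds the S libraries at 1.88 to 3.19 and the WT/TKO libraries at 1.257 to 2.17, and in the right panel S2 and S3 are the lowest at 0.245 and 0.236.

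The transaminase at the entry of the pathway was the steadiest member. Bcat2 stood at 124, 91.5, 92.3, 121 and 74.3 CPM in WT1, WT2, S7, S8 and S9, at 109, 70.0, 79.5, 101 and 97.3 CPM in S10, S11, S12, TKO5 and TKO6, and at 111, 93.8 and 90.2 CPM in S1 to S3. The female KO libraries ran from 88.0 to 121 CPM with a median of 98.1. Its range was 1.78-fold, and 28.1% of genes had a smaller SD.

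In the leucine arm, Ivd ranged from 186 CPM in S2 to 556 in WT1 (2.99-fold). The carboxylase subunits Mccc1 and Mccc2 ran from 37.9 to 87.0 and from 31.3 to 88.7 CPM, in both cases from S9 to WT1, and their FPKM ratio stayed between 0.251 and 0.373. Auh ran from 46.5 CPM in S9 to 96.6 in WT1, a 2.08-fold range.

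In the libraries labelled male, all 10 members had a slightly lower fitted level in KO than in WT, but for 4 of them the sign did not hold. Bckdk and Auh turned to 0.06 and 0.15 on the log2 scale in the S libraries alone, and to 0.03 and 0.02 under upper-quartile normalization. With 1 library left out they reached 0.12 each (Bckdk without WT1, Auh without S8), while Bckdha reached 0.15 and Mccc1 0.03 without S8. The median log2 fold change was -0.18 (range -0.24 to -0.01), beside a median of -0.01 over all 14481 genes tested. Ppm1k (-0.24 ± 0.24, standard error), Dbt (-0.24 ± 0.21) and Bckdhb (-0.22 ± 0.19) were farthest from 0, and Bckdk (-0.01 ± 0.16) and Auh (-0.01 ± 0.19) nearest. None was called by edgeR's quasi-likelihood test at a Benjamini-Hochberg adjusted p under 0.05, where 0% of all genes were called, nor at an unadjusted p under 0.05, where 4.75% were, nor at the thresholds of the study (unadjusted p under 0.05 and absolute log2 fold change of at least 0.58), where 2.09% were. DESeq2 called 0 members as well, and 13 of 14481 genes. No member had groups without overlap, beside 0.642% of all genes. The median came close to 0 without WT1 (-0.03) or S8 (-0.04) and reached -0.35 without S10. Without S4 to S9 it was -0.27. It was -0.07 in the S libraries alone. For WT1 and WT2 against TKO5 and TKO6 it was -0.27, in effect the same contrast as without S4 to S9. A fit with the Y-linked level as covariate rests in effect on that contrast too. It had Ppm1k at -0.52, Ivd at -0.51, Dbt at -0.44 and Bckdhb at -0.33. Without WT1, Ppm1k was at -0.07 and Dbt at -0.06, and without S8, Bckdhb was at -0.08.

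In the libraries labelled female, all 10 had a higher fitted level in KO. The median log2 fold change was 0.34 (range 0.19 to 0.94), beside -0.02 over all 14511 genes. Bckdha had the largest value, 0.94 ± 0.46, followed by Mccc2 with 0.44 ± 0.16, Bckdk with 0.40 ± 0.13 and Ivd with 0.40 ± 0.22, while Bcat2 had the smallest, 0.19 ± 0.12. At an adjusted p under 0.05 edgeR called 0 members and 0.0551% of all genes (8 of them), and DESeq2 called 0 members and 383 of 14511 genes. At an unadjusted p under 0.05 edgeR called 3 members (Bckdk, Mccc2 and Auh) beside 17.9% of all genes, and at the study's thresholds 0 beside 9.99%. The groups of Mccc2 (33.1 to 49.3 against 50.2 to 68.0 CPM) and of Ppm1k (39.3 to 49.9 against 54.6 to 101 CPM) did not overlap, 2 of 10 members beside 4.84% of all genes. In the S libraries alone, 3 WT against 3 KO, 4 members (Bckdk, Dbt, Mccc2 and Ppm1k) had groups without overlap, beside 16.7% of all genes. All female WT libraries are S libraries, so with the series in the fit the contrast is in effect that of the 6 S libraries. The value of Bckdha was 0.61 without S2 and 0.60 without S3, and that of Ivd was 0.22 without S2. These 2 libraries also stood apart in other measures. Mitochondrially encoded genes took 30.4% of counts in S2 and 25.6% in S3, against 19.3% in S1 and 19.95 to 23.5% in the female KO libraries. The summed CPM of the red blood cell markers was 996 in S2 and 797 in S3, against 237 in S1 and 182 to 640 in the female KO libraries. The part of either measure in the members' values was not tested. Without S1, 5 members passed the adjusted threshold in a fit that called 2408 of 14358 genes: Bckdha (2.04), Mccc1 (0.70), Ivd (0.70), Mccc2 (0.63) and Bckdk (0.55).

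**Figure D3:**
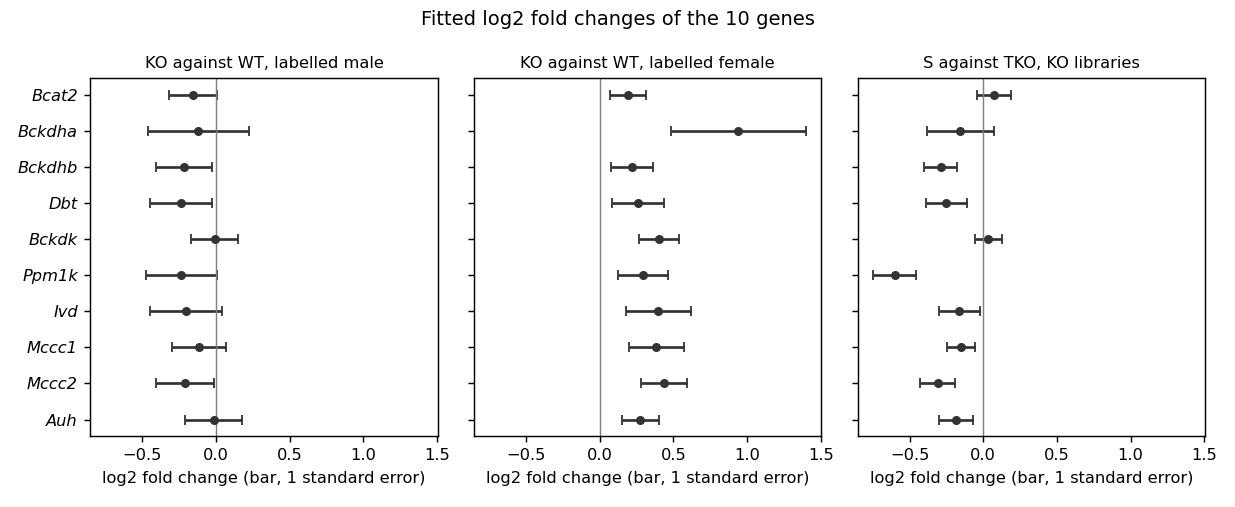
Fitted log2 fold change of each member (points) with 1 standard error (bars) for KO against WT in the libraries labelled male (left) and female (middle), and for S against TKO libraries among the KO libraries (right). On the left the points lie at -0.24 to -0.01, with Bckdk, Auh, Bckdha and Mccc1 above 0 when single libraries were left out and the first 2 also in the S libraries alone, in the middle all 10 lie at 0.19 to 0.94, and Ppm1k is the farthest below 0 on the right, at -0.60.

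The fitted values had opposite signs in the labelled sexes for all 10 members with every library in the fit, but in the males the signs of Bckdk, Auh, Bckdha and Mccc1 turned with the choices given above. In the females that of Bcat2 turned, to -0.08, without S4 to S9. The difference of the KO effect (male minus female) had a median of -0.38 (range -0.82 to -0.18). In the test of that difference, edgeR called 0 members and 0% of 15187 genes at an adjusted p under 0.05, and 0 members beside 15.6% of genes at an unadjusted p under 0.05. DESeq2 called 0 members and 20 of 15187 genes. Without S1, Bckdha alone was called among the members (-1.92, adjusted p = 0.0382 by edgeR), in a fit that called 1127 of 15120 genes. Over all 20 libraries with labelled sex and series as covariates, 5 members were higher and 5 lower in KO, with a median of 0.01. The numbers of members called were 0 at an adjusted p under 0.05 (0% of genes), 0 at an unadjusted p (4.93%) and 0 at the study's thresholds (1.94%), all by edgeR. In that comparison DESeq2 called 0 members and 12 of 15187 genes.

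Among the 12 KO libraries, the S and TKO libraries differed most in the phosphatase. Ppm1k was at 62.4, 34.1, 40.8, 54.6, 57.6 and 54.95 CPM in S10, S11, S12, S4, S5 and S6, and at 75.5, 65.9, 92.4, 101, 74.4 and 61.7 CPM in TKO5, TKO6 and TKO1 to TKO4. The series overlapped through S10 and TKO4 alone. The log2 fold change of S against TKO was -0.60 ± 0.14 (adjusted p = 0.0168 by edgeR), and between -0.70 and -0.54 with any 1 library left out (adjusted p from 0.00578 to 0.0470). It was -0.58 in the libraries labelled female alone, where the adjusted p was 0.0491. There the S libraries (S4 to S6) all carried Ddx3y and the TKO libraries (TKO1 to TKO4) Xist, so series and sex-linked transcripts cannot be told apart. In the libraries labelled male alone, where both series carried Ddx3y, it was -0.63 (adjusted p = 0.260). With the Y-linked level as covariate over all 12 libraries it was -0.64 (adjusted p = 0.156). Without S11 and S12, where Myl7 exceeded 500 CPM, it was -0.46 (adjusted p = 0.0386 by edgeR). Atrial transcripts still differed between the remaining libraries, with Myl7 at 184, 2.11, 77.9 and 137 CPM in S10, S4, S5 and S6. The TKO libraries had at most 1.15 CPM. Without S4 to S6 the log2 fold change of Ppm1k was -0.63 (adjusted p = 0.225 by edgeR). This fit, the one with the Y-linked level and the one in labelled males rest in effect on S10 to S12 against TKO5 and TKO6. Their likeness is therefore fixed by the design.

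The other members differed less between the series. Mccc2 (-0.31 ± 0.12) and Bckdhb (-0.29 ± 0.11) were lower in the S libraries at an unadjusted p under 0.05 and not after adjustment. Bckdk (0.03 ± 0.09) and Bcat2 (0.07 ± 0.11) were the 2 members with a higher fitted level in the S libraries, and both turned negative in the libraries labelled male alone (-0.11 and -0.20). Bckdha, at -0.15, turned to 0.13 in the libraries labelled female alone and without S11 and S12, and to 0.02 without TKO5. The median of the 10 was -0.17, beside -0.01 over all 14540 genes, and -0.04 without S11 and S12. At an adjusted p under 0.05 edgeR called 1 member beside 11.1% of all genes and at an unadjusted p 3 members beside 27.7%.

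The members' levels varied together from library to library. Over the 20 libraries, the 45 pairs of members had a median Pearson r of 0.85 on the log2 CPM scale (range 0.56 to 0.98), and 0.84 after the mean of each series was removed. A single component held 84.2% of the members' standardised variance. These points share library, depth and normalization, and the correlations are given as a description. WT1 was among the 5 highest libraries for all 10 members, and S9 and S11 were among the 5 lowest for all 10. Ordered by the mean of the standardised levels, the 6 lowest libraries were S9, S11, S3, S2, S12 and S7. Of these, S7, S9, S11 and S12 had over 500 CPM of Myl7, and S2 and S3 had 0.13 and 5.10 CPM.

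**Figure D4:**
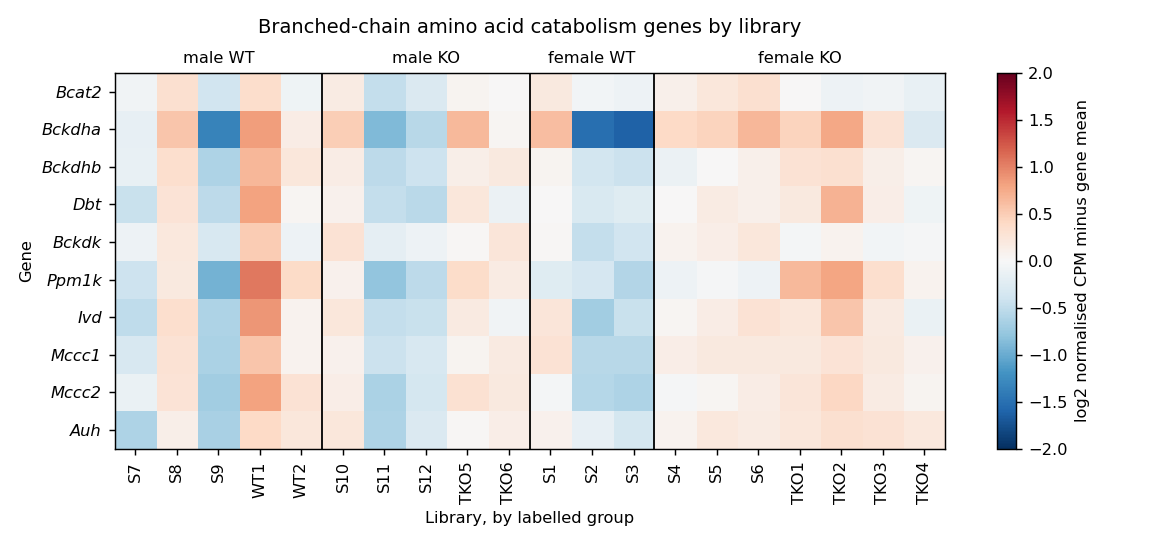
Log2 normalised CPM of each member (rows) in each library (columns, by labelled group), as the difference from that gene's mean; red is above the mean, blue below, and the scale runs from -2 to 2. WT1 is above the mean in all 10 rows, S9 and S11 are below it in all 10, and Bckdha in S2 and S3 is the darkest blue.

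The genes whose levels were most like those of the members included enzymes of fatty acid oxidation. Among 11948 non-member genes with at least 10 counts in every library, the 8 highest Pearson r with the mean standardised level of the members were those of Acadm (0.99), Hadha (0.99), Coq9 (0.98), Ndufs1 (0.98), Hadhb (0.98), Sucla2 (0.98), Tmem143 (0.97) and Slc25a11 (0.97). Acadm, Hadha and Hadhb encode enzymes of fatty acid oxidation, Coq9 a protein of coenzyme Q synthesis, Ndufs1 a subunit of respiratory complex I, Sucla2 a subunit of succinyl-CoA synthetase and Slc25a11 the oxoglutarate carrier. The median r of these 11948 genes was 0.00, and 716 of them (5.99%) exceeded 0.8.

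Summed levels of marker genes for cell types varied with the members. The mean level of the members correlated with the log2 summed CPM of 8 cardiomyocyte markers with r = 0.78 over the 20 libraries. These markers (Myh6, Myl2, Myl3, Tnnt2, Tnni3, Actc1, Ryr2 and Pln) are not confined to ventricular cells. For the log2 sums of 5 fibroblast markers r was -0.63, for 5 atrial markers -0.60 and for 5 endothelial markers -0.54. Within the S libraries these values were 0.76, -0.59, -0.47 and -0.71 (n = 12), and within the WT/TKO libraries 0.45, -0.42, -0.08 and -0.92 (n = 8). Without S7 and S11 the atrial value was -0.49, and without S6 and WT1 the endothelial value was -0.37. The cardiomyocyte value was 0.75 without S7 and S9, and the fibroblast value was -0.61 without S7 and S12. The lists for adipocytes, brown adipocytes, macrophages, red blood cells and liver gave r between -0.43 and 0.41. Of these, brown adipocytes had r = 0.52 within the S libraries and -0.24 within the WT/TKO libraries, the other 4 lay between -0.16 and 0.14 within the S libraries and between -0.19 and 0.12 within the WT/TKO libraries, and the adipocyte value was -0.27 without S7 and S9. The adipocyte marker Lep was at 3 counts or fewer in every library. With the percentage of mitochondrially encoded counts r was 0.03 over all 20 libraries, -0.26 within the S libraries and 0.26 within the WT/TKO libraries. With total counts it was 0.35, 0.41 and 0.59 in the same order, and 0.17 without S1 and WT1. All 8 cardiomyocyte markers were above 3 counts in every library. Their sum was 38263 to 58234 CPM in male WT, 42996 to 58428 in male KO, 47008 to 55388 in female WT and 45565 to 57170 in female KO libraries. The atrial sum was 9.48 to 6958 CPM in male WT, 9.67 to 7170 in male KO, 13.6 to 42.1 in female WT and 10.4 to 354 in female KO libraries. The fibroblast sum was 805 to 1298, 777 to 1136, 753 to 960 and 753 to 968 CPM in the same order, and the endothelial sum 831 to 1300, 953 to 1299, 1109 to 1173 and 858 to 1380 CPM. The part of these cells in the members' levels was not tested. Without S7, S9, S11 and S12 the median member difference in the males was -0.23. In heart tissue, fewer cells of a type and less RNA per cell cannot be told apart.

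The rest of the pathway was examined through lists chosen, like the members, with earlier results known. In the libraries labelled female all 11 genes of the valine and isoleucine arms had a higher fitted level in KO (median log2 fold change 0.33), as did all 4 genes at the end of the leucine arm (median 0.50) and 7 of 8 genes of the propionate steps (median 0.39). By edgeR 0 of them passed the adjusted threshold, and 4, 3 and 4 had an unadjusted p under 0.05, beside 17.9% of all genes. The valine and isoleucine list shares Acat1 with the leucine list, so their counts are not separate. It also holds Hadha, named above among the genes most like the members. Named by role, Acadsb, the short/branched-chain acyl-CoA dehydrogenase of the isoleucine arm, had 0.32 ± 0.17 and Aldh6a1, which handles methylmalonate semialdehyde from valine, 0.11 ± 0.16. Pcca, a propionyl-CoA carboxylase subunit, had 0.56 ± 0.27 and Mut, methylmalonyl-CoA mutase, 0.58 ± 0.23. Oxct1, which activates ketone bodies, had 0.43 ± 0.17. These values changed with single libraries. Without S1 they were larger, with Pcca at 1.04, Mut at 0.92, Acadsb at 0.54 and Oxct1 at 0.58. All 4 then passed the adjusted threshold by edgeR, in the fit that called 2408 of 14358 genes. Without S3, Pcca was at 0.32 and Oxct1 at 0.34, and without S2, Mut was at 0.42 and Acadsb at 0.20. Aldh6a1 ran from 0.05 without S3 to 0.21 without S1.

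In the males 10 of 11 genes of the valine and isoleucine arms (median -0.18), 6 of 8 of the propionate steps (median -0.19) and 3 of 4 at the end of the leucine arm (median -0.07) had a lower fitted level, with 0 past the adjusted threshold and 0 past the unadjusted one by edgeR, which 4.75% of all genes passed. Between the series of the KO libraries, 9 of 11, 8 of 8 and 4 of 4 genes of these lists were lower in the S libraries, with medians of -0.14, -0.20 and -0.21. Here 0 passed the adjusted threshold by edgeR, beside 11.1% of all genes, and 0, 2 and 1 the unadjusted one, beside 27.7%.

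Of 11 genes for transport and control of the pathway, 10 were lower in male KO (median -0.16), 8 higher in female KO (median 0.08) and 6 lower in S (median -0.04). By edgeR 0 passed the adjusted threshold in each comparison, and 3, 3 and 1 the unadjusted one, beside 4.75%, 17.9% and 27.7% of all genes. Klf15, a transcription factor known to control branched-chain amino acid enzymes, had -0.10 ± 0.19 in the males, 0.53 ± 0.18 in the females (adjusted p = 0.203 by edgeR) and -0.20 ± 0.14 between the series. Dld, the E3 subunit that this complex shares with pyruvate dehydrogenase, had -0.29 ± 0.23, 0.45 ± 0.22 and -0.10 ± 0.13 in the same order, and 0.78 in the females without S1 (adjusted p = 0.00775 by edgeR). Slc25a44, the mitochondrial carrier of branched-chain amino acids, lay near 0 in all 3 comparisons, at -0.04 ± 0.11, 0.03 ± 0.14 and -0.04 ± 0.10.

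Of 14 clock genes, whose levels cycle over the day, 8 were lower in male KO and 10 in female KO. By edgeR 0 passed the adjusted threshold in either sex, and 2 and 5 the unadjusted one, beside 4.75% and 17.9% of all genes. Between the series of the KO libraries 3 passed the adjusted threshold, beside 11.1% of all genes. Nr1d1, a repressor of the clock, was higher in the S libraries with a log2 fold change of 1.04 ± 0.17 (adjusted p = 0.00275 by edgeR), and Cry1 and Clock were lower, at -0.40 ± 0.10 and -0.42 ± 0.10 (adjusted p = 0.0181 and 0.0175). Without S6, Cry1 and Clock did not pass (adjusted p = 0.0569 and 0.0529 by edgeR), and none of the 3 did when the Y-linked level entered the fit. That last fit rests in effect on S10 to S12 against TKO5 and TKO6. The time of collection is not given, and its part in the level of Ppm1k was not tested.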

How the data were processed

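Mouse heart RNA was sequenced by the authors in 20 poly(A)-selected, paired-end libraries. Per the submitters' processing notes, HISAT2, HTSeq 0.6.1p2 and DESeq2 1.26.0 were used with GRCm38; strandedness and annotation are not given in the sources used here. The authors deposited whole-number read counts per gene, without normalization, and FPKM computed from those counts. FPKM lengths equal the GENCODE M21 exon unions of all 10 members.

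Each library was grouped by its labels alone. From the counts, edgeR 4.0.16 (R 4.3.3) computed TMM-normalised CPM, and its quasi-likelihood test covered all genes that reached 10 counts in 3 or more of the fitted libraries, with Benjamini-Hochberg adjustment over all genes tested. KO was compared with WT within each labelled sex (series as covariate) and over all libraries (series and labelled sex), the series within KO (labelled sex as covariate), and the KO effect between the labelled sexes as an interaction. Correlations used log2 CPM with a prior count of 2, and for marker sums log2(summed CPM + 1). Alternatives were DESeq2 1.42.0, limma 3.58.1 on log2(FPKM + 1), other normalizations, filters, covariates and subsets, and each library left out in turn. Leaving out S4 to S9, or S7, S9, S11 and S12, and a block on the number in the library name were chosen after seeing the data. The tests were tried on simulated data; DESeq2, tried for the male comparison alone, made false calls above its nominal rate there, so its higher counts are given without a reading.

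Members and gene lists were chosen with earlier results of these data known. The genes named are the 10 members, 9 pathway genes chosen by role (1 of which is not reported here), list genes with an adjusted p under 0.05, the 8 genes most correlated with the members, and label checks; B3gnt8, Myl7 and 0610005C13Rik were added after their values were seen. Promoters came from RefSeq; Dbt had none in the table used. The authors' blots, PCR and human cell data were not analysed here.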

Additional observations from a re-analysis of the deposited data

Results flagged for a closer look

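Of 30 combinations of a member and a group of 4 to 10 libraries, 1 held a library far from the rest of its group. Dbt, the E2 core of the dehydrogenase complex, was at 80.3 CPM in TKO2, labelled female KO, while the other 6 libraries of that group lay between 46.5 and 56.9 CPM. The gap was 0.629 of the group's range. Chance marks about 1 in 20 such groups. TKO2 also had 8 of the 10 members among their 5 highest libraries.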

How the results depend on the processing

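The median differences in the males, in the females, between the series and between the sexes kept their direction under every alternative run, apart from the block below, and the median over all 20 libraries lay close to 0 and did not. The number of members called changed in these cases. In the libraries labelled female, 1 member (Bckdha) was called with no filter on low counts, a setting in which 1110 of 27319 genes were called, 1 (Ppm1k, 0.87, adjusted p = 0.0372 by edgeR) without S4 to S9, where 366 of 14235 genes were called, series and genotype coincide and Bcat2 turned to -0.08, and 0 to 5 with 1 library left out, the 5 without S1. Between the series of the KO libraries, where 1621 of 14540 genes were called, 0 members were called with the Y-linked level as covariate (68 of 14540 genes). The count was also 0 in the libraries labelled male alone (7 of 13549 genes) and without S4 to S9 (71 of 14274 genes). These fits rest in effect on S10 to S12 against TKO5 and TKO6. With 1 library left out, 1 to 2 members were called (2, with Bckdhb, without S10, where 1535 of 14490 genes were called). For the difference between labelled sexes the count was 0 to 1 with 1 library left out (1 without S1). The causes were not tested. Medians with 1 library left out ran from -0.35 to -0.03 in the males, 0.24 to 0.47 in the females, -0.06 to 0.12 over all libraries, -0.28 to -0.11 between the series and -0.51 to -0.24 for the difference between sexes. DESeq2 called 13 of all genes in the males, 383 in the females, 12 over all libraries and 20 for the difference between sexes, where edgeR called 0, 8, 0 and 0. Some numbers recur across the S, WT and TKO names, and no label ties them to a shared animal or batch. The deviations of same-numbered S and TKO libraries from their means correlated at -0.242 to 0.226. With that number as a block, over 6 libraries, 1 member (Ppm1k, 0.98) was called in the females, where series and genotype then coincide and 169 of 14022 genes were called, and between the series 0 members were called beside 268 of 13792 genes, with a median of 0.05 and Ppm1k at -0.29. Over 8 libraries of both genotypes 0 members and 1 of 14252 genes were called.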
